A study of Mus musculus with 3 samples.

Results

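Transcripts of 9 enzymes of serine synthesis and folate one-carbon metabolism were followed in stable BCR::ABL1+ cell lines that express kinase inactive CDK6. The members were chosen by symbol and matched through their Ensembl identifiers, which gave 9 of the 50686 genes in the count table: Phgdh, Psat1, Psph, Shmt1, Shmt2, Mthfd1, Mthfd2, Mthfd1l and Aldh1l2. Polyadenylated RNA was sequenced from 3 lines, called lines 1, 2 and 3 by replicate number. All 3 had been raised from bone marrow of C57BL/6 mice homozygous for the K43M mutation of Cdk6 (Cdk6 KM/KM), by retroviral transduction with BCR-ABL p185, the fusion kinase of acute lymphoblastic leukemia. Each line grew out under that retroviral oncogene in culture, so a line represents selected outgrowing cells and not fresh marrow. Whether the lines came from separate mice was not given in the sources used here, so SDs measure the spread between these lines only. The p-values below set the differences between libraries against counting error alone. Each line gave 1 library, so differences between lines cannot be told apart from differences in culture or library preparation. Lines of wildtype or deleted Cdk6 were not analysed here, and no difference between genotypes was computed. The values give the level of each enzyme's transcript and how far it varied between lines of 1 genotype.

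Serine is made from a glycolytic intermediate in successive steps catalysed by PHGDH, PSAT1 and PSPH. Serine hydroxymethyltransferases then pass a carbon of serine to tetrahydrofolate, SHMT2 in mitochondria and SHMT1 in the cytosol, and release glycine. MTHFD2, MTHFD1L and ALDH1L2 process the loaded folate in mitochondria, MTHFD1 handles it in the cytosol, and the carbon units feed purine, thymidylate and methionine synthesis, for which proliferating lymphoid leukemia cells have a high demand.

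The libraries were 19633463 to 25773221 counts deep. Levels are given as CPM, the count scaled to a normalized library size. A gene without reads could have a level of up to 3 counts, or 0.118 to 0.152 CPM. All intervals and limits below cover counting error only. Of 10 B-lymphoid precursor markers, 9 reached 1 CPM in each line, with summed levels of 3661 to 4100 CPM. Of the 10, 3 differed between lines by at least 1.5-fold, where 28.4% of all genes tested did. They were Rag1 at 22.4, 91.4 and 32.4 CPM, Il7r at 82.8, 136 and 89.8 CPM and Dntt at 0.967, 1.62 and 4.28 CPM in lines 1, 2 and 3. Their part in the members' differences was not tested. The markers of other cells were low, with 4 of 8 myeloid, 3 of 5 T cell, 3 of 7 erythroid and megakaryocyte and 5 of 5 stromal markers at 0 in every line and summed levels of at most 7.11 CPM. Cdk6 itself was read at 449.5, 334 and 239 CPM in lines 1, 2 and 3. This checks that the gene was transcribed but not the point mutation. The Cdk6 level was not even across the lines. Line 1 exceeded line 3 by 1.88-fold (counting interval 1.82 to 1.94), so Cdk6 too differed by at least 1.5-fold. The part of this difference in those of the members was not tested.

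Promoter sequence was available for 8 of the 9 members in RefSeq (GRCm38.p6), taken as the 250 bases before the transcription start. Motifs were searched on both strands, and these matches describe the letters only. The motif of NRF-1, a regulator of nuclear genes for mitochondrial proteins that the study examined, was searched as its 10-base palindrome, the capitals in the Shmt2 sequence below. It was present in the Shmt2 promoter alone among the 8, at bases 19 to 10 before the start, and in 0.782% of 32851 promoters. CCAAT, the core of the NF-Y motif, was present in 6 of 8, the promoters of Phgdh, Psat1, Psph, Shmt1, Mthfd1 and Mthfd2, and in 33.9% of all promoters. The C/EBP-ATF response element, searched as TGATGNAAN, and the E-box CACGTG were in 0 of 8 and in 3.44% and 6.02% of all promoters. The 4 promoters below are shown because they hold the NRF-1 match or more than 1 CCAAT match and lie almost wholly outside annotated exons. Psph also holds 2 CCAAT matches, but its 250 bases lie in annotated exons and are not shown. They are written 5′ to 3′ on the minus strand, on which these 4 genes lie, and capitals mark the NRF-1 match in Shmt2 and CCAAT, or ATTGG where it lies on the other strand, in the rest. The RefSeq starts of Phgdh, Psat1 and Mthfd2 lie inside the wider Gencode spans of these genes.
Shmt2, chr10:127522445-127522694: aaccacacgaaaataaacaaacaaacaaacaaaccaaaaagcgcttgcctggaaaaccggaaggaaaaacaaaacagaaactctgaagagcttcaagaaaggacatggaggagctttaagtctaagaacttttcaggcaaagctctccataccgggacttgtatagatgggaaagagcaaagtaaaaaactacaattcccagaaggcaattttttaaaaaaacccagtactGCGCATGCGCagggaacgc
Phgdh, chr3:98339970-98340219: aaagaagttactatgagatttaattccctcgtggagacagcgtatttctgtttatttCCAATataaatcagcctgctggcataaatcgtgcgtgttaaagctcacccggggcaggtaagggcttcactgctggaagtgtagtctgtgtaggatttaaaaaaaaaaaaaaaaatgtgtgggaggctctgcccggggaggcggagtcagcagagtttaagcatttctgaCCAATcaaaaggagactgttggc
Psat1, chr19:15925060-15925309: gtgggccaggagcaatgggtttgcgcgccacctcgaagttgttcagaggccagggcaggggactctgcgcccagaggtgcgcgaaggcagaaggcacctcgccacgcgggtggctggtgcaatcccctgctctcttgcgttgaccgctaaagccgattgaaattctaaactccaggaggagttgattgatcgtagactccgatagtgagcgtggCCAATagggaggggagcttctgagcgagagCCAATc
Mthfd2, chr6:83317605-83317854: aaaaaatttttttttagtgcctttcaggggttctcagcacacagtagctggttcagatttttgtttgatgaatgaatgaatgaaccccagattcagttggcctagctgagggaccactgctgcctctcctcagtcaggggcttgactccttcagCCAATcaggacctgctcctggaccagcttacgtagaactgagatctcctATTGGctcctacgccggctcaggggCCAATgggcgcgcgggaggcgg

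Of the 9 enzymes, 8 were expressed above 1 CPM in every line, and together the 9 took 0.269%, 0.244% and 0.258% of all counts in lines 1, 2 and 3 (mean 0.257% ± 0.0126, SD, n = 3). Levels of different genes were compared as CPM per kilobase of exon. On this scale Shmt2 was the highest member at 249.7 ± 9.72 (SD, n = 3), at the 99.3rd percentile of the 13974 genes tested. Psat1 followed at 109 ± 14.98. Shmt1 (75.4 ± 6.88), Mthfd2 (66.1 ± 7.79), Mthfd1 (64.1 ± 17.2), Mthfd1l (64.1 ± 3.40) and Phgdh (57.7 ± 4.32) lay close together, between the 93.7th and the 95.6th percentile. Psph was lower at 21.3 ± 7.53 and Aldh1l2 the lowest at 0.519 ± 0.529 CPM per kilobase, at the 21.3rd percentile. The ranges over the lines of neighbours in this order did not overlap for Shmt2 and Psat1, for Psat1 and Shmt1, for Phgdh and Psph, or for Psph and Aldh1l2. Those of Shmt1, Mthfd2, Mthfd1, Mthfd1l and Phgdh overlapped from each to the next. Within libraries Shmt1 exceeded Mthfd2, and Mthfd1l exceeded Phgdh, in 3 of 3 lines, whereas Mthfd2 exceeded Mthfd1 in 1 and Mthfd1 exceeded Mthfd1l in 2. With the longest annotated transcript as the length, Mthfd2 passed Shmt1 (111 against 102) and the other ranks were the same.

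**Figure D1:**
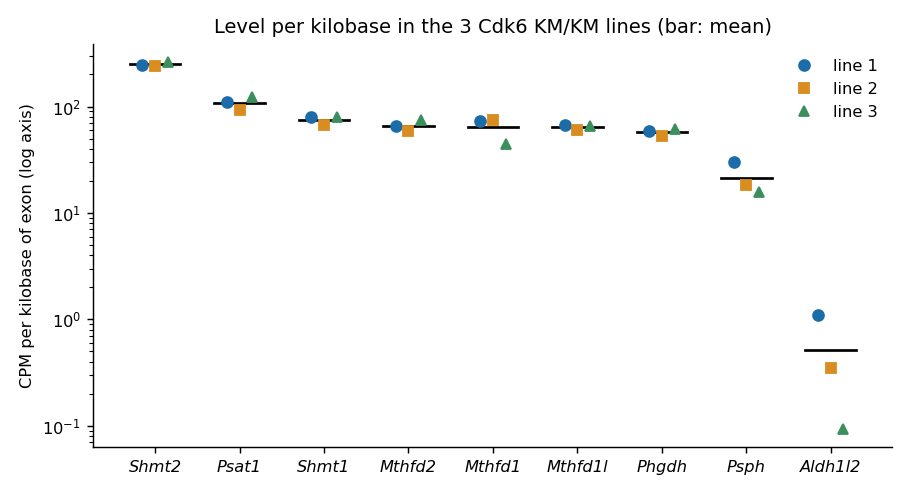
Level of each enzyme's transcript in CPM per kilobase of exon (log axis) in the 3 Cdk6 KM/KM lines, 1 point per line, with the mean as a bar. Shmt2 sits above all other members in each line, 5 members share a band around 57.7 to 75.4, and only the Aldh1l2 points spread over more than a 10-fold range.

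Counts were set against the normalized library sizes gene by gene with a chi-square test of homogeneity and Benjamini-Hochberg adjustment over all genes tested. Such a test compares these libraries and not conditions. All 9 members differed between lines at an adjusted p of 0.05, where 66.8% of all genes tested did. A difference of at least 1.5-fold between the highest and the lowest line was found in 3 of 9, Psph, Mthfd1 and Aldh1l2, against 28.4% of all genes tested and 19.7% of the 8528 genes with a mean of at least 10 CPM, which Aldh1l2 does not reach. The median fold between highest and lowest line was 1.26 over the members (range 1.08 to 11.8), 1.37 over all genes tested and 1.22 over those at 10 CPM or more. The median SD of log2(CPM + 1) between lines was 0.17 over the members, 0.17 over all genes tested and 0.15 over those at 10 CPM or more. The medians of the enzymes thus lay close to those of other genes of these lines. Line 2 was the lowest line for 6 of the 9 members, line 3 for 3 and line 1 for 0, where lines 1, 2 and 3 were the lowest for 33.9%, 30.5% and 35.1% of all genes tested.

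**Figure D2:**
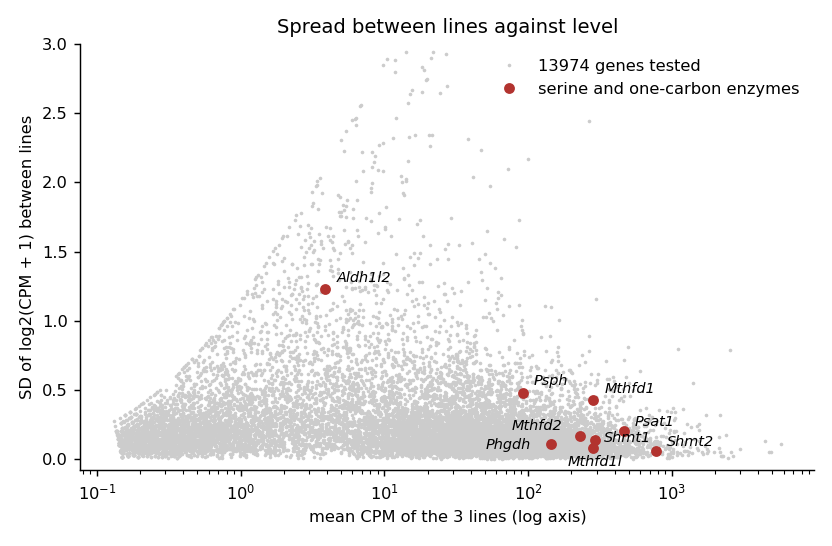
SD of log2(CPM + 1) between the 3 lines (vertical axis) against mean CPM (horizontal log axis) for the 13974 genes tested in grey and the 9 enzymes in red, with 12 grey genes above the vertical axis not shown. Shmt2 has a small SD of 0.06, Psph and Mthfd1 stand above the other well expressed members at 0.48 and 0.43, and Aldh1l2 has the largest at 1.23.

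Phgdh and Psat1, the first enzymes of serine synthesis, were both highest in line 3 and lowest in line 2, an order that the last, Psph, did not share. Phgdh (ENSMUSG00000053398.11, mm10 chr3:98313170-98339990, minus strand), the dehydrogenase that commits 3-phosphoglycerate to serine, was read at 145, 132 and 154 CPM in lines 1, 2 and 3 (143.5 ± 10.7, SD, n = 3). Its highest line, line 3, was 1.16-fold above the lowest, line 2 (95% counting interval 1.11 to 1.22, chi-square adjusted p = 6.6e-08). Psat1 (ENSMUSG00000024640.9, chr19:15904678-15947337, minus strand), the aminotransferase of the next step, was read at 465, 398 and 525 CPM (462 ± 63.7, SD, n = 3). Line 3 exceeded line 2 by 1.32-fold (1.28 to 1.36, chi-square adjusted p = 2.7e-83).

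Psph (ENSMUSG00000029446.14, chr5:129765558-129787449, minus strand), the phosphatase that releases serine, gave 2802, 1565 and 1727 counts, or 129, 79.3 and 67.8 CPM (92.1 ± 32.6, SD, n = 3). Line 1 stood above the other two, which lay close together. The fold of line 1 over line 3 was 1.90 (1.79 to 2.02, chi-square adjusted p = 1.7e-113). Line 1 decided this size, since without it the lines differed 1.17-fold. Per kilobase and within a library, Psat1 exceeded Phgdh by 1.88, 1.76 and 2.00 times in lines 1, 2 and 3 (1.88 ± 0.120, SD, n = 3). The ratio of Psat1 to Psph was less even, at 3.66, 5.11 and 7.88 (5.55 ± 2.14, SD, n = 3).

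The mitochondrial hydroxymethyltransferase transcript was both the most abundant and the steadiest member by its SD on the log2(CPM + 1) scale. Shmt2 (ENSMUSG00000025403.5, chr10:127517123-127522444, minus strand) was read at 771, 749 and 809 CPM (776 ± 30.2, SD, n = 3). Its lines lay within 1.08-fold (1.06 to 1.10, chi-square adjusted p = 8.7e-12). Shmt1 (ENSMUSG00000020534.14, chr11:60788104-60811718, minus strand), which catalyses the same reaction in the cytosol, was read at 309, 262 and 308 CPM (293 ± 26.7, SD, n = 3). Lines 1 and 3 were alike and line 2 lower, with a fold of 1.18 (1.14 to 1.22, chi-square adjusted p = 6.5e-22). Per kilobase, Shmt2 exceeded Shmt1 in each library, by 3.12, 3.57 and 3.28 times (3.32 ± 0.229, SD, n = 3).

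Mthfd1, the cytosolic enzyme with 3 activities on folate, was the member with the lowest chi-square p. Mthfd1 (ENSMUSG00000021048.7, chr12:76255298-76319803, plus strand) gave 7083, 6541 and 5011 counts, or 326, 331 and 197 CPM (285 ± 76.3, SD, n = 3). Lines 1 and 2 were alike and line 3 stood below both. Line 2 exceeded line 3 by 1.68-fold (1.62 to 1.75, chi-square adjusted p = 1.9e-213). All of it rested on line 3, since without it the other two differed 1.01-fold (chi-square adjusted p = 0.57).

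Mthfd2 and Mthfd1l, which act in mitochondria, were lowest in line 2 and not in line 3. Mthfd2 (ENSMUSG00000005667.8, chr6:83305691-83325908, minus strand), the dehydrogenase and cyclohydrolase of the mitochondrial arm, was read at 226, 206 and 259.5 CPM (231 ± 27.1, SD, n = 3). Line 3 was the highest and line 2 the lowest, with a fold of 1.26 (1.21 to 1.31, chi-square adjusted p = 3.8e-31). Mthfd1l (ENSMUSG00000040675.17, chr10:3973118-4167081, plus strand), which releases formate from mitochondria, was read at 295, 267 and 291 CPM (284 ± 15.1, SD, n = 3). The fold of line 1 over line 2 was 1.10 (1.07 to 1.15, chi-square adjusted p = 1.9e-07). Without line 2, Phgdh, Shmt1 and Mthfd1l did not pass the test (adjusted p = 0.090, 0.49 and 0.18, same chi-square test).

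Both ratios over Mthfd1 per kilobase were highest in line 3, where Mthfd1 was lowest. Mthfd2 over Mthfd1 was 0.884, 0.791 and 1.68 in lines 1, 2 and 3 (1.12 ± 0.489, SD, n = 3). With the longest transcript as the length it was 1.08, 0.965 and 2.05, so only its side of 1 in lines 2 and 3 was the same with both lengths. Mthfd1l over Mthfd1 was 0.906, 0.807 and 1.48 (1.06 ± 0.364, SD, n = 3). With the longest transcript it was 0.795, 0.708 and 1.30 (mean 0.934). Each line thus kept its side of 1, but the mean did not. Mthfd2 far exceeded its paralog Mthfd2l in every library, at 90.9, 94.4 and 49.4 times per kilobase (78.2 ± 25.0, SD, n = 3).

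Aldh1l2 (ENSMUSG00000020256.14, chr10:83487450-83534140, minus strand), the mitochondrial formyltetrahydrofolate dehydrogenase, was the sparse member, with 181, 52 and 18 counts. These correspond to 8.34 CPM (95% exact Poisson interval 7.17 to 9.65) in line 1, 2.63 (1.97 to 3.45) in line 2 and 0.707 (0.419 to 1.12) in line 3. The 3 intervals did not overlap. Line 1 exceeded line 3 by 11.8-fold (7.26 to 20.4, chi-square adjusted p = 2.9e-41). The fold was 3.73 without line 1 and 3.17 without line 3, so these lines set its size, and the difference passed the test without either.

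Some members share sequence or exons with other genes, and the strand setting of the counting and the treatment of reads with several matches were not given in the sources used here. Of the 50-base stretches of the longest coding transcript, the read length in the sample record, 63.1% of Phgdh were also found in transcripts of 23 other genes, with Gm7901 alone holding 50.6%. Gm7901 was read at 248, 208 and 325 counts. The Phgdh level is therefore uncertain. Psph shared 23.9% of its stretches, all with Cct6a, a chaperonin subunit gene whose exons overlap on the opposite strand and which was read at 1143, 877 and 899 CPM. Cct6a too was highest in line 1, and reads of the 2 genes cannot be told apart in the overlap without strand. Aldh1l2 shared 16.8% with D10Wsu102e, also on the opposite strand, at 123, 110.4 and 117 CPM. Shared stretches made up 4.81% of Shmt1 (with Smcr8), 1.83% of Shmt2, 1.21% of Psat1 and 0% of Mthfd1, Mthfd2 and Mthfd1l. The part of this overlap in the differences between lines was not tested.

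Each member was set beside the other genes within 5 Mb on its chromosome, by how far every line deviated on the log2(CPM + 1) scale from the average over the lines. Mthfd1 deviated by 0.24, 0.26 and -0.49 in lines 1, 2 and 3, and the median of its 44 neighbours on chromosome 12 by 0.29, 0.26 and -0.55. Of these neighbours 39 were lowest in line 3, the lowest line of Mthfd1 and of 35.1% of all genes tested. After subtraction of the neighbours the range of Mthfd1 between lines went from 0.75 to 0.11, or to 0.27 with neighbours within 2 Mb.

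Psph deviated by 0.54, -0.16 and -0.38, and the median of its 36 neighbours on chromosome 5 by 0.31, -0.11 and -0.23. Line 1 was the highest for 33 of the 36 neighbours. The share of all genes that were highest in line 1 was not computed. After subtraction the range of Psph went from 0.92 to 0.38. Aldh1l2 showed no such company. It deviated by 1.27, -0.09 and -1.18, while the median of its 112 neighbours on chromosome 10 stayed within -0.04 to 0.02, and its range was 2.45 before and 2.51 after subtraction. The other 6 members had ranges of 0.11 (Shmt2) to 0.40 (Psat1) and neighbours whose medians spanned 0.03 (Mthfd2) to 0.20 (Psat1). The number of copies of these chromosome regions was not measured, and its part in the differences was not tested.

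**Figure D3:**
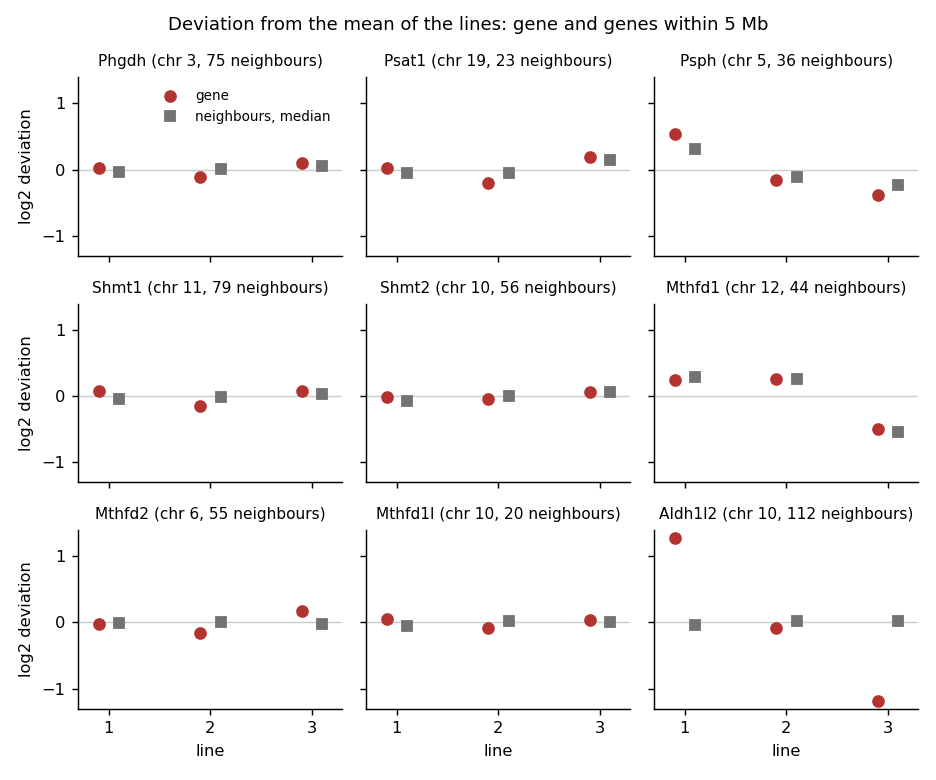
How far every line deviated from the average over the 3 lines, in log2(CPM + 1) units (vertical axis), for each enzyme (red circles) and for the median of the other genes within 5 Mb (grey squares), in lines 1, 2 and 3 (horizontal axis). In the Mthfd1 panel circles and squares lie side by side, at -0.49 and -0.55 in line 3, while in the Aldh1l2 panel only the circles leave 0.

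The pathways that supply and use these enzymes were described by 44 other genes of folate, serine, glycine and methionine metabolism, in 7 groups. Of these, 32 reached 1 CPM in each line, and 6 were at 0 in every line: the folate receptors Folr1 and Folr2, the histidine catabolic enzyme Ftcd, the betaine methyltransferase Bhmt and the serine dehydratases Sds and Sdsl. A count of 0 allows up to 0.152 CPM in the shallowest library. Of 37 genes tested, 30 differed between lines (background 66.8%) and 15 did so by at least 1.5-fold (background 28.4%). With at least 10 counts required in every line, 12 differed by at least 1.5-fold (background 26.2%). The median SD of log2(CPM + 1) over the 37 was 0.21, beside 0.17 over the enzymes and over all genes tested. It was 0.15 over all genes at 10 CPM or more. Genes with the highest level per kilobase or the largest SD of their group are given below.

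In folate uptake and retention, 5 of 7 genes were tested and 3 differed by 1.5-fold. Of these 3, Slc46a1 (9, 15 and 2 counts in lines 1, 2 and 3) and Ggh (0, 1 and 36 counts) lay near the floor. Both are named after their values were seen. Fpgs, which adds glutamates to folate and so holds it in the cell, was read at 125, 131 and 151 CPM. Slc19a1, the reduced folate carrier, was read at 191, 139.8 and 121 CPM, highest in line 1 with a fold of 1.57. In other folate interconversion, 1 of 5 tested genes differed by 1.5-fold. Mthfd2l, a mitochondrial paralog of Mthfd2, was read at 4.75, 4.15 and 10.0 CPM, highest in line 3.

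Thymidylate and purine synthesis, the main users of folate carbon, had 7 of 7 genes expressed and 2 that differed by 1.5-fold. Paics, of purine synthesis, was read at 533, 464 and 359 CPM. Tyms, the thymidylate synthase, had the largest SD of the group, at 109, 90.2 and 43.2 CPM in lines 1, 2 and 3, a fold of 2.53 (2.36 to 2.72, chi-square adjusted p = 1.7e-151). Tyms was lowest in line 3, the lowest line for 35.1% of all genes tested.

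In the methionine cycle and transsulfuration, 4 of 7 tested genes differed by 1.5-fold. Of these 4, Cbs had only 2, 3 and 17 counts in lines 1, 2 and 3. Mat2a, which makes S-adenosylmethionine, was steady at 484, 479 and 450.1 CPM. Mtrr, the reductase that restores methionine synthase, was read at 116, 55.3 and 46.3 CPM, with line 1 above the other two. In glycine cleavage Gldc, the decarboxylase, was both the highest and the most variable gene, at 304, 442 and 287 CPM, and the only one to differ by 1.5-fold.

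Among serine and glycine transporters 1 of 6 differed by 1.5-fold. Slc1a5, a carrier of neutral amino acids, was read at 459, 419 and 421 CPM. Sfxn1, which carries serine into mitochondria, was read at 168, 252 and 149 CPM, highest in line 2. Of the other users of serine, 3 of 3 tested genes differed by 1.5-fold. Sptlc1, of sphingolipid synthesis, was read at 26.1, 43.2 and 27.2 CPM, and Srr, the serine racemase, at 8.98, 11.4 and 18.0 CPM.

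**Figure D4:**
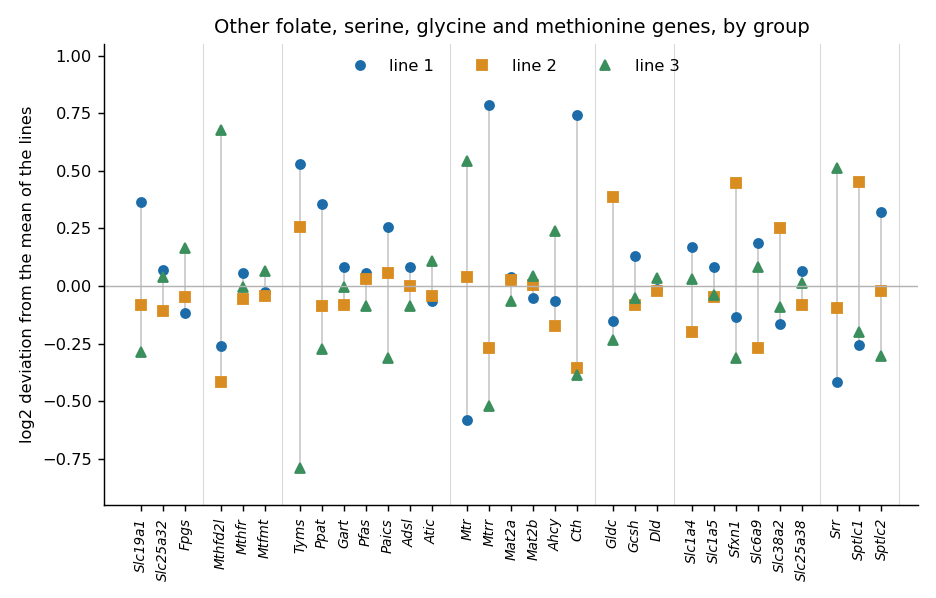
How far every line deviated from the average over the lines, in log2(CPM + 1) units (vertical axis), for 31 of the other pathway genes that reached 1 CPM in all lines, ordered by group (grey dividers). No line is on top throughout: line 1 is highest for Mtrr and Tyms, line 2 for Gldc and Sfxn1 and line 3 for Mthfd2l and Srr.

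Of the 15 pathway genes that differed by 1.5-fold, 4 lie on chromosome 13 (Mtr, Mtrr, Sfxn1 and Sptlc1), where 5 pathway genes were tested, and 3 on chromosome 5 (Mthfd2l, Tyms and Ppat), where 4 were tested. Subtraction of the neighbours brought the range between lines to under 50% in 5 of the 15, Mtr, Mtrr, Sfxn1, Sptlc1 and Ppat, and did not make it smaller in 5, Slc19a1, Mthfd2l, Gldc, Cbs and Cth. The same subtraction was not run over all genes that differed by 1.5-fold, so no background share stands beside these counts. Mtr, Ppat, Cbs and Cth are named here after their values were seen. Sfxn1 and Sptlc1 lie near each other on chromosome 13 and share most of their neighbours, so they are not separate cases in these counts. Sptlc1 deviated by -0.25, 0.45 and -0.20 in lines 1, 2 and 3, and the median of its 59 neighbours by -0.29, 0.48 and -0.20. For Mtrr the gene had 0.79, -0.27 and -0.52 and its 42 neighbours 0.57, -0.06 and -0.50. Mtr, the methionine synthase, ran the opposite way at -0.58, 0.04 and 0.54, and so did its 21 neighbours at -0.42, 0.13 and 0.49. Ppat had a range of 0.63 before and 0.30 after subtraction. Mthfd2l ran against its neighbours, with a range of 1.10 before and 1.33 after, and Cth on chromosome 3 had 1.13 before and 1.15 after.

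Atf4 and Myc encode transcription factors known to raise serine and one-carbon genes. Atf4 was read at 351, 353 and 321 CPM and Myc at 715, 659 and 553 CPM in lines 1, 2 and 3. The fold between highest and lowest line was 1.10 for Atf4 and 1.29 for Myc. Line 3 was the lowest for both, as it was for 35.1% of all genes tested. With 3 lines no relation between these levels and those of the enzymes was computed.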

How the data were processed

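Polyadenylated RNA of 3 Cdk6 KM/KM BCR::ABL1+ lines was sequenced (QIAGEN RNeasy, 50 bp single-end reads; the sample record names a SENSE mRNA-Seq kit and the methods a TruSeq kit). After trimming and merging of lanes, the authors used STAR with mm10 for alignment and counted those over Gencode M13 exons with featureCounts. The deposited values are raw counts per gene without normalization, with 0 rows that name no gene. The table holds 6 further columns of samples not used here.

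Counts were scaled with edgeR 4.0.16 (TMM, R 4.3.3) to CPM. Tested genes had a sum of 10 or more counts, after the study's filter. Homogeneity of counts was tested by chi-square with Benjamini-Hochberg adjustment at 0.05. The procedure was also run on simulated counts, to see if it recovers well covered genes whose expected counts were raised in 1 line. Apart from these raised genes, the simulated counts varied by counting error only. That run cannot tell how the test behaves with other variation between libraries. Nothing in the sources used here links equal replicate numbers to a shared batch. Lengths and positions came from Gencode M21 (50376 identifiers matched). Neighbours had a mean log2(CPM + 1) of at least 2. Other pathway genes were named by rule: in each group the highest per kilobase and the largest SD among those with 1 CPM in each line, and those at 0. One gene that this rule named is not reported here. Members and lists were chosen with earlier results of these data known. The alternatives tried were scaling by library size or by size factors of DESeq2 1.42.0, other count filters, a pseudocount of 0.1 CPM, windows of 2 and 10 Mb, another gene length and leaving out each line.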

Additional observations from a re-analysis of the deposited data

How the results depend on the processing

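Of 130 alternative values over 26 results, 124 kept their direction and side of the threshold or moved by less than the spread between lines. These were 44 of 49 values for the 8 main results and 80 of 81 values for single genes. The second share says little, since leaving out 1 line can hardly move a mean CPM by more than that spread. The fall from 9 to 6 members that differed without line 2 also counted as kept. The mean ratio of Mthfd2 to Mthfd1 per kilobase counted as kept too, though it went from 1.12 to 0.837, across 1, without line 3. Leaving out each line in turn gave 6098 to 7267 genes that differed (9341 with all lines), 1882 to 2817 that differed by at least 1.5-fold (3962 with all lines) and 4 to 13 other pathway genes that did so (15 with all lines). These counts compare 2 libraries in place of 3. The fewest came without line 3 in each case. Without line 1 the counts at 1.5-fold were 2598 genes and 9 pathway genes. Without line 3 Mthfd1, and without line 1 Psph, no longer differed by 1.5-fold. The range of Mthfd1l after subtraction of its neighbours was 0.41 with a 2 Mb window and 0.23 with 5 Mb, and the cause was not tested. Both other scalings and both count filters kept the same 3 members past 1.5-fold. Depth limits Aldh1l2, with 18 counts in line 3. No paired analysis was possible because the lines form 1 group.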
